A study of Mus musculus with 8 samples.

Results

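The retinoic acid pathway was read here through 10 genes in the developing mouse retina, chosen by their symbols among the 57180 rows of a table of gene counts: Rdh10, Aldh1a1, Aldh1a2, Aldh1a3, Crabp1, Crabp2, Cyp26a1, Cyp26c1, Rara and Rarb. All 10 had a row in the table, 9 had enough counts to be tested and 1, Cyp26c1, had no count in any library. The libraries came from isolated embryonic retinas, 4 control samples (Smo CKO/CKO, both Smo alleles floxed and no Cre) and 4 Rax-SmoCKO samples (Rax-Cre; Smo CKO/CKO, the same alleles with Cre). Smo passes the Sonic hedgehog signal into the cell, and the study asked what its loss does to the transcripts of the early retina. Rax-Cre is a BAC transgene that is active in the optic vesicle, cup and stalk and in what arises from them, the pigment epithelium, optic nerve head and ciliary body as well as the retina, and also in the ventral thalamus and hypothalamus. All animals were on an albino CD1 background, and no group carried Cre without the floxed alleles. The labels give a day that goes up by 1 from sample to sample, from 13 for control replicate 1 to 20 for Rax-SmoCKO replicate 4. The series' design text, however, places the retinas at day 13, and the study's results place them at the midpoint of that day. The ages were therefore taken as equal and the label was not used. The sources do not say whether a library held 1 embryo or several, so p-values measure the spread between these samples.

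Retinoic acid is made from vitamin A. Retinol is oxidized to retinal, retinal is oxidized to retinoic acid by the Aldh1a enzymes, and retinoic acid enters the nucleus, where its receptors, bound to DNA as pairs with retinoid X receptors, turn genes on. Cyp26 enzymes break it down and so set where the signal ends. In the mouse eye Aldh1a1 is known as the dorsal and Aldh1a3 as the ventral enzyme of the retina, Aldh1a2 as an enzyme of the mesenchyme around the eye, and Cyp26a1 and Cyp26c1 as genes of a stripe across the retina between the dorsal and ventral domains. Whole retinas were measured, so domains are not resolved, and in bulk RNA fewer cells of a type cannot be told apart from less RNA per cell.

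The receptors bind direct repeats of a 6-base element, with 1, 2 or 5 bases between the copies. The spelling taken here was AGGTCA as the reference form, along with the variant spelling GGGTCA, the further spelling AGTTCA, and lastly the spelling GGTTCA. These repeats were looked for on both strands of RefSeq promoter windows of GRCm38.p6, which run from 250 bases before to 50 bases after a gene's start and were at hand for 7 of the 10 genes in 11 windows (those of Aldh1a3, Rdh10 and Crabp2 were not used here). The repeat with a 5-base spacer stood in the windows of 2 of those 7 genes, Rarb and Cyp26a1, and in 31 of the 27025 genes with a window (0.115%). The repeats with 1 and 2 bases between the copies were in the windows of 0 of the 7 genes, beside 0.263% and 0.311% of the 27025 genes with a window. The Rarb repeat, on the gene's own strand, began 53 bases before the RefSeq start and left 36 bases between itself and the start (printed stretch chr14:16575483-16575559, minus strand). The Cyp26a1 repeat, on the opposite strand, reached from 32 bases before its start and left 15 bases between (printed stretch chr19:37697746-37697807, plus strand). Both stretches are printed because they belong to a receptor and a breakdown enzyme that are themselves known targets of retinoic acid. The capitals mark the 2 copies that form the repeat with a 5-base spacer, 5′ to 3′ on the gene's strand. Any other copy of the element is in lower case.
Rarb: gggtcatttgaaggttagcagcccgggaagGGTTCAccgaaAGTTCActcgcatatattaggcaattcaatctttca
Cyp26a1: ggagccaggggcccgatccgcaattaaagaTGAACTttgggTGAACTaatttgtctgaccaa
A match is a stretch of letters and not a measured binding site. The RefSeq start of Rarb lies inside the span that GENCODE gives the gene, and tags from the 3′ end of a transcript do not tell which start was used.

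The 8 libraries held 3017480 to 4615667 counts each. Levels are given as CPM, the counts of a gene per 1000000 counts of the library after TMM scaling. The genotype was visible in Smo, with 23.8, 21.5, 16.3 and 23.1 CPM in the controls and 2.84, 4.95, 3.23 and 3.67 CPM in the Rax-SmoCKO retinas (log2 fold change −2.50, SE 0.21, edgeR quasi-likelihood test with Benjamini-Hochberg adjustment, adjusted p = 0.000256). Gli1, a direct target of the pathway, fell by 2.95 on the log2 scale (SE 0.37, adjusted p = 0.004444, edgeR). Summed retinal progenitor markers lay at 3863.7 to 4262.6 CPM in the controls and 3829.9 to 4236.1 CPM in the Rax-SmoCKO libraries. Some libraries stood apart in transcripts of other tissues. Control replicate 2 held 20483.8 CPM of lens markers, beside 9.94 to 16.17 CPM in the other controls. Rax-SmoCKO replicate 2 held 490.9 CPM of lens markers, 3797.3 CPM of erythroid markers and 378 CPM of periocular mesenchyme markers, each the highest of its group. Y-linked transcripts were counted at 243.2 and 240.4 CPM in Rax-SmoCKO replicates 2 and 3 and at no more than 0.2549 CPM in the other 6 libraries. Xist stood at 0.4301 and 0 CPM in those 2 and at 439.8 to 791.7 CPM in the other 6. By these transcripts the 2 libraries read as male and the other 6, with all controls, as female. Sex and genotype therefore cannot be fully told apart. Each tested member is therefore also given without Rax-SmoCKO replicate 2 and without replicates 2 and 3, which leaves 2 Rax-SmoCKO libraries.

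Of the 9 tested genes, 0 passed an adjusted p of 0.05 in edgeR, where 0.095% of all 14730 tested genes did (5 higher, 0.0339%, and 9 lower, 0.0611%). At an unadjusted p under 0.05, 3 of the 9 were higher (Aldh1a2, Rarb and Cyp26a1) and 0 were lower, beside 4.89% and 4.61% of all genes. DESeq2 and limma-voom also called 0, with DESeq2 giving no adjusted p to Aldh1a2 and Rarb. The groups overlapped for every tested member, where 5.7% of all genes had groups that did not (2.7% higher and 3% lower). Fold changes were above 0 for 6 genes and below 0 for 3, with a median of 0.20 on the log2 scale beside 0.0001 over all tested genes. Without Rax-SmoCKO replicate 2 the median was 0.05 beside −0.0066.

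**Figure D1:**
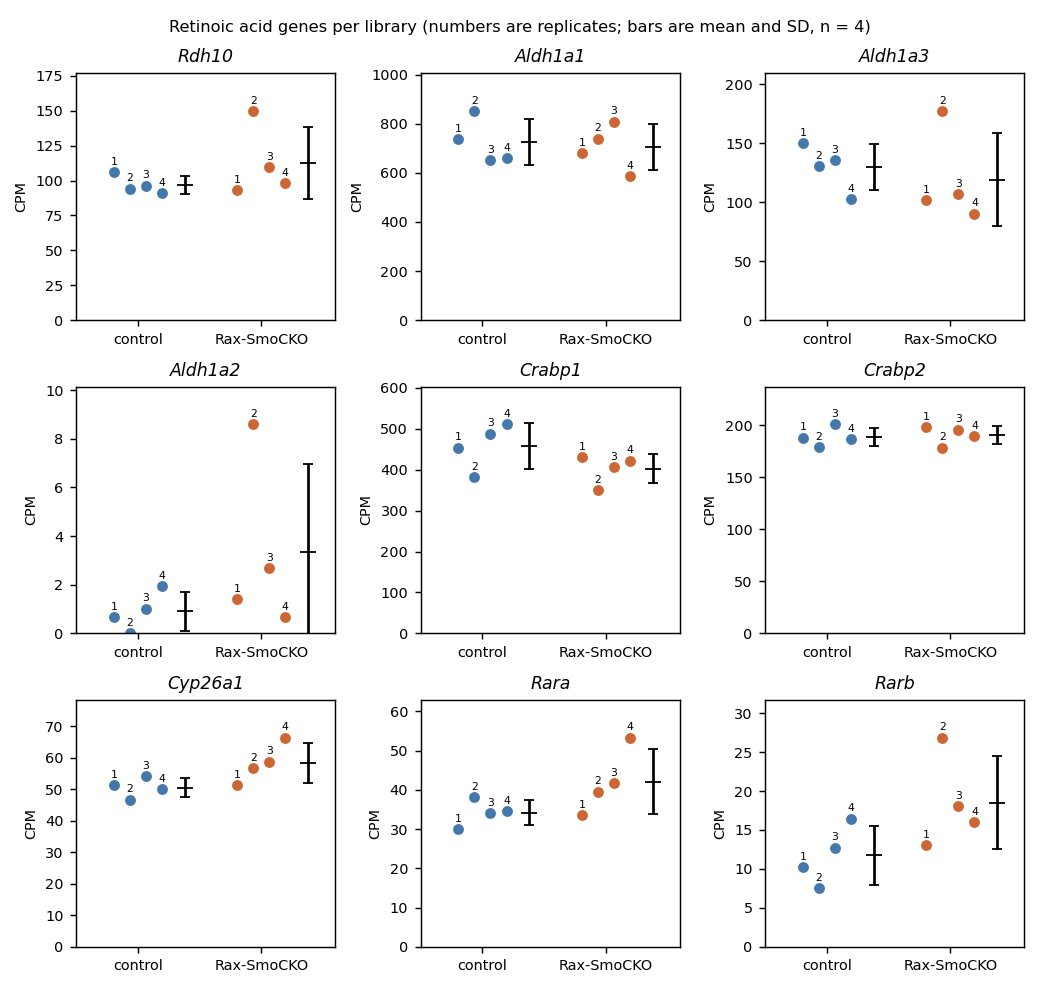
Level in CPM of the 9 retinoic acid genes with counts in each of the 8 libraries, control in blue and Rax-SmoCKO in orange, with the replicate number over each point and bars for the mean and SD (n = 4; each panel has its own scale from 0, which ends the lower bar of Aldh1a2). The groups overlap in every panel, and Rax-SmoCKO replicate 2 is the highest library for Rdh10, Aldh1a2, Aldh1a3 and Rarb.

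The levels of the 10 genes ranged widely, and their order was much the same from library to library, with Aldh1a3 and Rdh10 changing places. Since 3′ tags give about 1 count per transcript whatever its length, CPM can be set side by side between genes. Aldh1a1 was the most abundant, at 714.4 CPM over the 8 libraries and above 99.2% of tested genes. Crabp1 (430.4 CPM), Crabp2 (189.7 CPM), Aldh1a3 (124.5 CPM) and Rdh10 (104.9 CPM) came next, followed by Cyp26a1 (54.32 CPM), Rara (38.15 CPM), Rarb (15.12 CPM) and Aldh1a2 (2.127 CPM). Most neighbours in this order did not overlap in range. Aldh1a3 and Rdh10 did overlap, with Aldh1a3 the higher in 6 of 8 libraries, so that these neighbours did not differ beyond their spread. Cyp26a1 and Rara, and Rarb and Aldh1a2, overlapped in range across libraries, but the first of each pair was the higher in all 8. The summed level of the 10 genes was 1654.1 to 1730.4 CPM in the controls and 1523.3 to 1749.4 CPM in the Rax-SmoCKO retinas.

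The first step of the pathway belongs to Rdh10 (ENSMUSG00000025921, GRCm38 chromosome 1, 16105774 to 16133734, plus strand), the main retinol dehydrogenase of the mouse embryo. Its level was 106.3, 94.2, 96.34 and 91.17 CPM in control replicates 1 to 4 and 93.36, 149.9, 109.8 and 98.04 CPM in Rax-SmoCKO replicates 1 to 4. Only Rax-SmoCKO replicates 2 and 3 lay above all controls, and replicate 2 was far above the rest. The means were 97.0 ± 6.56 and 112.8 ± 25.7 CPM (SD, n = 4), a log2 fold change of 0.22 (SE 0.13, 95% interval −0.05 to 0.50, adjusted p = 0.6187 in edgeR). Without Rax-SmoCKO replicate 2 the change was 0.05, and without replicates 2 and 3 it was −0.02. The spread of Rdh10 among controls was small, with a coefficient of variation of 6.77%, and among Rax-SmoCKO retinas it was 22.8%.

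Aldh1a1 (ENSMUSG00000053279, chromosome 19, 20492715 to 20643465, plus strand) makes retinoic acid in the dorsal retina. It stood at 736.7, 852.1, 652.5 and 659.9 CPM in the controls and at 679.6, 738.9, 808.6 and 587.2 CPM in the Rax-SmoCKO retinas. Neither group was the higher throughout, and the highest library was a control. The means were 725.3 ± 92.7 and 703.6 ± 93.8 CPM. With 1761 to 3600 counts per library this gene had the most counts of the 10, and its log2 fold change was −0.04 (SE 0.10, 95% interval −0.26 to 0.17, adjusted p = 0.9274 in edgeR). It was −0.07 without Rax-SmoCKO replicate 2 and −0.20 without replicates 2 and 3.

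Aldh1a3 (ENSMUSG00000015134, chromosome 7, 66390890 to 66427517, minus strand) is its ventral counterpart. The controls had 150.2, 130.7, 135.8 and 102.9 CPM and the Rax-SmoCKO retinas 102.1, 177.4, 106.9 and 90.37 CPM. Rax-SmoCKO replicate 2 was the highest of all 8 libraries while replicates 1 and 4 were below every control. The means were 129.9 ± 19.8 and 119.2 ± 39.4 CPM, and the log2 fold change was −0.12 (SE 0.18, 95% interval −0.51 to 0.28, adjusted p = 0.8885 in edgeR). Without Rax-SmoCKO replicate 2 it was −0.38 (adjusted p = 0.2849), without replicates 2 and 3 it was −0.43, and without Rax-SmoCKO replicate 4 it was −0.0086. Leaving out each of the 8 libraries in turn gave −0.3789 to −0.0086. Over all 17 alternatives the adjusted p of Aldh1a3 ran from 0.2849 to 0.9975.

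The balance of the ventral and dorsal enzymes can be read within a library, free of scaling, as Aldh1a3 counts in percent of all Aldh1a1, Aldh1a2 and Aldh1a3 counts. This share was 16.9%, 13.3%, 17.2% and 13.5% in the controls and 13.0%, 19.2%, 11.6% and 13.3% in the Rax-SmoCKO retinas. The means were 15.22 ± 2.137% and 14.3 ± 3.339% (SD, n = 4), and the difference of −0.9249 percentage points did not pass a two-sided exact permutation test (p = 0.7429, adjusted over 2 shares 0.7429). The groups overlapped, and Rax-SmoCKO replicate 2 had the highest share of the 8. The smallest p that 4 against 4 libraries allow is 0.02857.

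**Figure D2:**
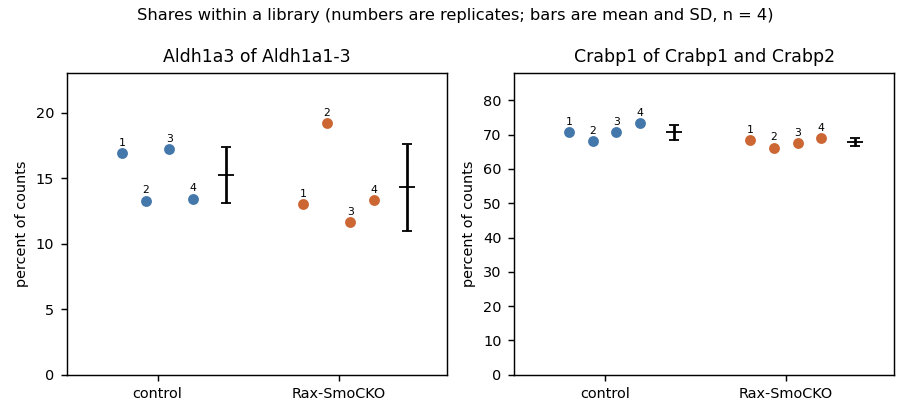
Left, Aldh1a3 counts in percent of all Aldh1a1, Aldh1a2 and Aldh1a3 counts; right, Crabp1 counts in percent of Crabp1 and Crabp2 counts, for each library (numbers are replicates, bars are mean and SD, n = 4). The groups overlap in both, with Crabp1 shares of 68.0 to 73.3% in the controls and 66.2 to 69.0% in the Rax-SmoCKO retinas.

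Aldh1a2 (ENSMUSG00000013584, chromosome 9, 71215789 to 71296243, plus strand) was the lowest of the genes with counts. It was counted 2, 0, 4 and 7 times in the controls and 6, 40, 10 and 2 times in the Rax-SmoCKO libraries, which is 0.66, 0, 1.02 and 1.95 CPM against 1.42, 8.60, 2.69 and 0.67 CPM. Rax-SmoCKO replicates 2 and 3 lay above all controls, and replicate 4 was below 2 of them. Its log2 fold change was 1.96, the highest of the 10 genes, with an SE of 0.81 and a 95% interval of 0.21 to 3.71 (adjusted p = 0.4746 in edgeR). Without Rax-SmoCKO replicate 2 the change was 0.86 (adjusted p = 0.7641), and without replicates 2 and 3 it was 0.29 (adjusted p = 0.9513). With replicate 2 of both groups left out it was 0.40 (adjusted p = 0.8895 in edgeR). When genes with few counts were kept in the fit, the adjusted p was 0.04639, which is the only setting of those run that called a member. That setting called 154 genes higher and 135 lower over all genes, beside 5 and 9 in the main fit. Over the alternatives that gave Aldh1a2 an adjusted p it ran from 0.04639 to 0.9513.

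Aldh1a2 is known from mesenchyme around the eye, and markers of that tissue were read beside it. The 12 mesenchyme markers, each with counts in at least 1 library, summed to 58.45, 115.5, 67.8 and 178.4 CPM in the controls and to 99.99, 378, 206.7 and 56.02 CPM in the Rax-SmoCKO libraries. As for Aldh1a2, the highest sums were those of Rax-SmoCKO replicates 2 and 3 and the lowest of the mutant sums was that of replicate 4. The controls followed in part only. Replicate 4 was the highest control in both, but control replicate 2, with 115.5 CPM of markers, had 0 counts of Aldh1a2. Control replicates 1 and 3, with 58.45 and 67.8 CPM, had 2 and 4 counts. Of the 11 mesenchyme markers tested, 9 were highest in Rax-SmoCKO replicate 2, and 0 were called. Fold changes were above 0 for 10 of the 11, with a median of 1.04 on the log2 scale, and of 0.33 without Rax-SmoCKO replicate 2. Pigment epithelium markers, 9 of which were tested and 0 called, summed to 114.3 to 388.4 CPM in the controls and 140.7 to 803.2 CPM in the Rax-SmoCKO libraries with Rpe65, the 10th of that list, at 0 in every library. All 9 had fold changes above 0, with a median of 0.91 on the log2 scale, and of 0.77 without Rax-SmoCKO replicate 2. At an unadjusted p under 0.05 in edgeR 4 of the 9 were higher, beside 4.89% of all tested genes. The part of these tissues in the levels of Aldh1a2, Rdh10 and Rarb was not tested.

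**Figure D3:**
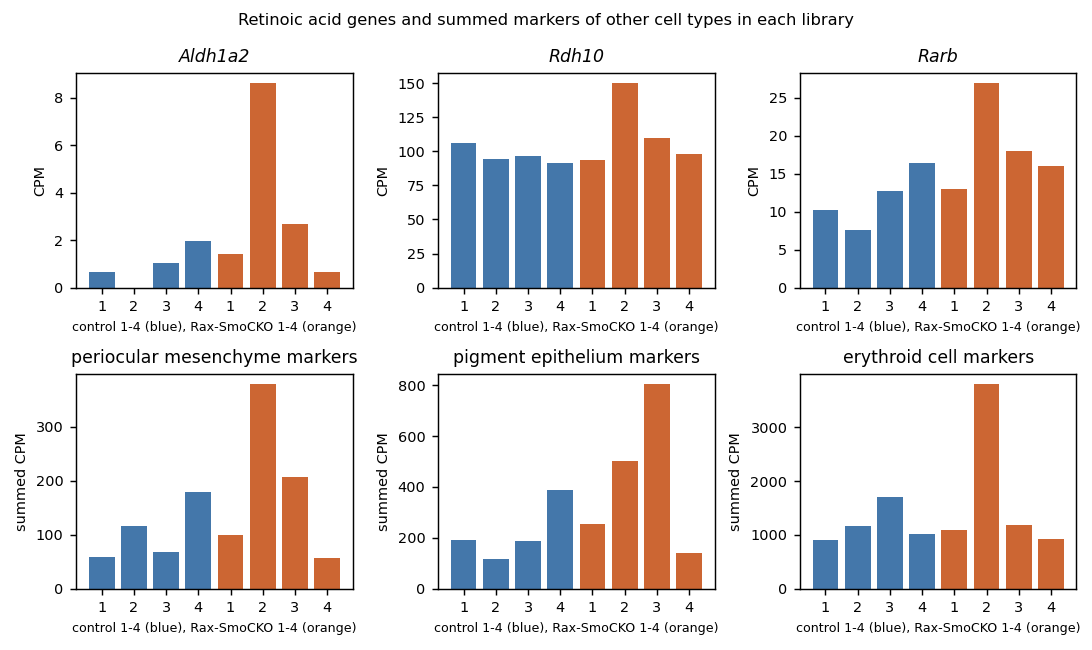
Level in CPM of Aldh1a2, Rdh10 and Rarb (top) and summed CPM of marker genes of periocular mesenchyme, pigment epithelium and erythroid cells (bottom) in control libraries 1 to 4 (blue) and Rax-SmoCKO libraries 1 to 4 (orange), 1 bar per library from 0. Rax-SmoCKO replicate 2 has the tallest bar in every panel except pigment epithelium, where replicate 3 has 803.2 CPM.

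Of the cellular binding proteins, Crabp1 and Crabp2 carry retinoic acid in the cytoplasm, and Crabp2 is known to hand it to the receptors. Crabp1 (ENSMUSG00000032291, chromosome 9, 54764748 to 54773110, plus strand) stood at 453.7, 381.8, 487.6 and 510.8 CPM in the controls and at 430.5, 350.1, 407.0 and 421.8 CPM in the Rax-SmoCKO retinas. All 4 Rax-SmoCKO values were below the control mean, yet only replicate 2 was below every control. The means were 458.5 ± 56.2 and 402.4 ± 36.2 CPM, with a log2 fold change of −0.19 (SE 0.09, 95% interval −0.38 to 0.01, adjusted p = 0.5367 in edgeR). It was −0.13 without Rax-SmoCKO replicate 2 and −0.11 without replicates 2 and 3. Control replicate 2, the library rich in lens transcripts, was the lowest control. Without it the change was −0.27 (SE 0.07, adjusted p = 0.2704 in edgeR), and without replicate 2 of both groups it was −0.21 (adjusted p = 0.3053 in edgeR).

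Crabp2 (ENSMUSG00000004885, chromosome 3, 87948666 to 87953376, plus strand) had the tightest values of the 10 genes. It stood at 188.2, 179.4, 201.1 and 186.5 CPM in the controls and at 198.6, 178.7, 196.0 and 189.4 CPM in the Rax-SmoCKO retinas. The means were 188.8 ± 9.04 and 190.7 ± 8.86 CPM, and the 95% interval of the log2 fold change, −0.12 to 0.15 around 0.01, was the narrowest of the members (SE 0.06, adjusted p = 0.9668 in edgeR). It was 0.04 both without Rax-SmoCKO replicate 2 and without replicates 2 and 3. Crabp1 made up 70.7%, 68.0%, 70.8% and 73.3% of the counts of the pair in the controls and 68.4%, 66.2%, 67.5% and 69.0% in the Rax-SmoCKO retinas. The mean share was 70.69 ± 2.133% against 67.79 ± 1.226% (SD, n = 4). The difference of −2.901 percentage points did not pass a two-sided exact permutation test (p = 0.08571, adjusted over 2 shares 0.1714), with 1 control library inside the range of the Rax-SmoCKO libraries.

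Breakdown was represented by Cyp26a1 (ENSMUSG00000024987, chromosome 19, 37697798 to 37701536, plus strand), the enzyme that clears retinoic acid and that retinoic acid itself is known to induce. Control values were 51.18, 46.63, 54.03 and 49.90 CPM, and Rax-SmoCKO values were 51.18, 56.55, 58.68 and 66.36 CPM. Replicates 2, 3 and 4 of Rax-SmoCKO were above every control and replicate 1 lay among them. The means were 50.4 ± 3.07 and 58.2 ± 6.29 CPM, a log2 fold change of 0.20 (SE 0.09, 95% interval 0.01 to 0.39, adjusted p = 0.5060 in edgeR). Unlike Aldh1a2, Rdh10 and Rarb, this value did not turn on Rax-SmoCKO replicate 2, without which it was 0.21, as it was without replicates 2 and 3. Without Rax-SmoCKO replicate 4 it was 0.14. The highest value was in Rax-SmoCKO replicate 4, the library that was also highest for 17.9% of all tested genes. Retinal ganglion cell markers summed to 4081.1, 3652.1, 4031.0 and 5338.3 CPM in the Rax-SmoCKO libraries and to 3218.5 to 3790.3 CPM in the controls, so that 3 of 4 Rax-SmoCKO libraries lay above every control. All 8 of these markers had fold changes above 0, with a median of 0.36 on the log2 scale, and 0 were called in edgeR or limma-voom and 2 in DESeq2, while 7 had an unadjusted p under 0.05 in edgeR. Their part in the levels of Cyp26a1 and Rara was not tested.

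Cyp26c1 (ENSMUSG00000062432, chromosome 19, 37685581 to 37693398, plus strand) ends 4399 bases before Cyp26a1 begins on the same strand. It had 0 counts in all 8 libraries, which allows a level of up to 0.645 CPM in the deepest library, 1 CPM in Rax-SmoCKO replicate 4 and 0.0989 CPM over all libraries together, for counting error only. The neighbour pair thus differed in level in every library, with Cyp26a1 at 155 to 263 counts. No comparison between genotypes was possible for Cyp26c1.

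The receptors in the list are Rara and Rarb, which bind retinoic acid and act on DNA. Rara (ENSMUSG00000037992, chromosome 11, 98927818 to 98974942, plus strand) stood at 30.05, 38.11, 34.15 and 34.57 CPM in the controls and at 33.65, 39.57, 41.72 and 53.36 CPM in the Rax-SmoCKO retinas. As with Cyp26a1, Rax-SmoCKO replicates 2, 3 and 4 were above every control and replicate 4 was the highest. The means were 34.2 ± 3.30 and 42.1 ± 8.26 CPM, a log2 fold change of 0.28 (SE 0.13, 95% interval −0.0039 to 0.56, adjusted p = 0.5310 in edgeR). Without replicate 2 it was 0.30, without replicates 2 and 3 it was 0.32, and without replicate 4 it was 0.16 (adjusted p = 0.7813 in edgeR, the highest over the alternatives, where the lowest was 0.3649).

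Rarb (ENSMUSG00000017491, chromosome 14, 16430839 to 16819156, minus strand) is the receptor gene best known as a target of retinoic acid, and its promoter stretch is printed above. The controls had 10.24, 7.574, 12.74 and 16.45 CPM, and the Rax-SmoCKO retinas had 13.03, 26.88, 18.04 and 16.01 CPM. All 4 Rax-SmoCKO values were above the control mean of 11.8 ± 3.78 CPM, and replicates 2 and 3 were above all controls. The Rax-SmoCKO mean was 18.5 ± 5.96 CPM, and the log2 fold change was 0.67 (SE 0.26, 95% interval 0.11 to 1.23, adjusted p = 0.4532 in edgeR). Rarb thus had the smallest p of the 10 genes and did not pass once all genes were counted. Without Rax-SmoCKO replicate 2 the change was 0.41 (adjusted p = 0.6299), and without replicates 2 and 3 it was 0.30 (adjusted p = 0.7897). Control replicate 2 was the lowest control, and without replicate 2 of both groups the change was 0.24 (adjusted p = 0.7668 in edgeR). Over the alternatives that gave Rarb an adjusted p it ran from 0.08246 to 0.7897. The 3′ end of Rarb shares 4624 bases with the 3′ end of Top2b, a DNA topoisomerase gene on the opposite strand with 2177 to 3179 counts per library, beside 31 to 125 for Rarb. The use of strand in the counting is not stated in any source at hand, so Rarb counts could hold some reads of Top2b. The log2 fold change of Top2b was 0.02 (SE 0.05, adjusted p = 0.9337 in edgeR).

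**Figure D4:**
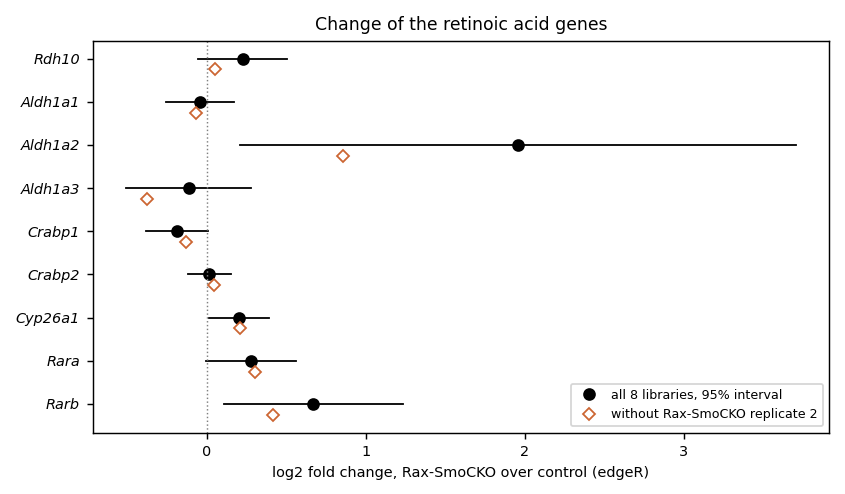
Log2 fold change, Rax-SmoCKO over control, of the 9 tested retinoic acid genes in edgeR with all 8 libraries (black points, lines are 95% intervals) and without Rax-SmoCKO replicate 2 (open diamonds). Aldh1a2 moves from 1.96 to 0.86, Rdh10 from 0.22 to 0.05 and Rarb from 0.67 to 0.41, whereas Cyp26a1 and Rara stay at 0.20 to 0.30.

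The 10 genes thus showed different patterns over libraries. Rax-SmoCKO replicate 2 was the highest library for 4 of the 9 tested members (Rdh10, Aldh1a2, Aldh1a3 and Rarb), and for 12.8% of all tested genes. Rax-SmoCKO replicate 4 was the highest for Cyp26a1 and Rara. The highest libraries of Aldh1a1, Crabp1 and Crabp2 were controls. The same replicate 2 was low for Crabp1 and Crabp2, with the lowest value of the 8 in both genes.

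Beyond the 10 genes, 61 other genes of the pathway in 6 lists were read from the same fit. Of these, 6 had no count in any library and 38 were tested. 0 were called in edgeR, DESeq2 or limma-voom, with 5 higher and 1 lower at an unadjusted p under 0.05 (4.89% and 4.61% of all tested genes) and with 14 left without an adjusted p by DESeq2. Fold changes were above 0 for 29 and below 0 for 9, with a median of 0.13 on the log2 scale beside 0.0001 over all tested genes, and of 0.11 without Rax-SmoCKO replicate 2. That library was the highest for 13 of the 38. The groups did not overlap for 1 of the 38 genes (2.7% of all genes were higher without overlap), Adh5, a widely expressed alcohol dehydrogenase, which stood at 100.4, 104.6, 101.2 and 99.25 CPM in the controls and at 109.2, 116.5, 112.8 and 104.7 CPM in the Rax-SmoCKO retinas. Its log2 fold change was 0.13 (SE 0.06, adjusted p = 0.5303 in edgeR).

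Of 10 genes of retinol uptake and storage, 4 were tested, all with fold changes above 0 and a median of 0.35. Rlbp1, which binds retinal and is known from the pigment epithelium, stood at 4.62, 1.42, 6.12 and 7.81 CPM in the controls and 6.63, 23.2, 11.8 and 4.67 CPM in the mutants. Its log2 fold change of 1.27 (SE 0.50, adjusted p = 0.4579 in edgeR) was 0.65 without Rax-SmoCKO replicate 2 and 0.21 without replicates 2 and 3. Rbp4, the serum carrier of retinol, had a log2 fold change of 0.47 (SE 0.41), and of 0.21 without replicates 2 and 3.

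Of 16 dehydrogenases and reductases that act on retinol and retinal, 6 were tested, 4 above 0 and 2 below, with a median of 0.08. Dhrs3 turns retinal back into retinol, works together with Rdh10 and is known to be induced by retinoic acid. It stood at 1.65, 0.947, 2.04 and 1.95 CPM in the controls and 2.37, 6.67, 2.96 and 1.67 CPM in the Rax-SmoCKO retinas, a log2 fold change of 1.10 (SE 0.46, adjusted p = 0.4809 in edgeR) that was 0.52 without replicate 2 and 0.33 without replicates 2 and 3.

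Cyp1b1 and Cyp26b1 were the tested genes of other retinal oxidation and retinoic acid breakdown. Cyp1b1 is a cytochrome that can oxidize retinol and retinal, and stood at 37.3, 36.2, 43.1 and 42.9 CPM in the controls and 26.8, 41.9, 31.8 and 22.0 CPM in the Rax-SmoCKO retinas. Replicates 1, 3 and 4 were below all controls and replicate 2 lay among them. Its log2 fold change was −0.36 (SE 0.16, adjusted p = 0.5121 in edgeR), −0.56 without replicate 2 and −0.70 without replicates 2 and 3. Cyp26b1, the third enzyme of the Cyp26 family, stood at 6.604, 5.681, 7.137 and 6.412 CPM in the controls and 5.687, 21.72, 13.73 and 5.002 CPM in the mutants. Only replicates 2 and 3 were above the controls, as for Aldh1a2, and the log2 fold change of 0.87 (SE 0.40, adjusted p = 0.5195 in edgeR) was 0.34 without replicate 2. Without replicates 2 and 3 it turned to −0.26.

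All 6 other receptors and partners were tested, 5 above 0 and 1 below, with a median of 0.20. Among the retinoid X receptors, Rxra had a log2 fold change of 0.26 (SE 0.15) and Rxrb of −0.14 (SE 0.09). Fabp5, a fatty acid binding protein that also binds retinoic acid, was the most abundant, at 134 ± 11.8 CPM in the controls and 137 ± 11.4 CPM in the Rax-SmoCKO retinas. The corepressors and coactivators of the receptors stayed within a narrow range, from −0.01 to 0.19 in all 8 genes. Ncor1, a corepressor, was the most abundant (log2 fold change −0.01, SE 0.06), the coactivator gene Ncoa1 had 0.19 (SE 0.09, adjusted p = 0.5142 in edgeR), and Crebbp, an acetyltransferase, had 0.14 (SE 0.07).

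Of 18 genes known to respond to retinoic acid in some tissue, 12 were tested, 9 above 0 and 3 below, with a median of 0.17. Zfp503, a zinc finger repressor, stood at 49.86, 46.86, 49.96 and 53.81 CPM in the controls and 50.71, 82.57, 68.91 and 54.02 CPM in the Rax-SmoCKO retinas (log2 fold change 0.36, SE 0.13, adjusted p = 0.4322 in edgeR, 0.21 without replicate 2 and 0.06 without replicates 2 and 3). Eya2 had 0.21 (SE 0.11, and 0.39 without replicates 2 and 3), and Nr2f1, a nuclear receptor gene and the most abundant of the list, had 0.08 (SE 0.07). Foxc1, a known target of retinoic acid in the mesenchyme around the eye, belongs to the mesenchyme markers as well, so that this list and that one are not independent.

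**Figure D5:**
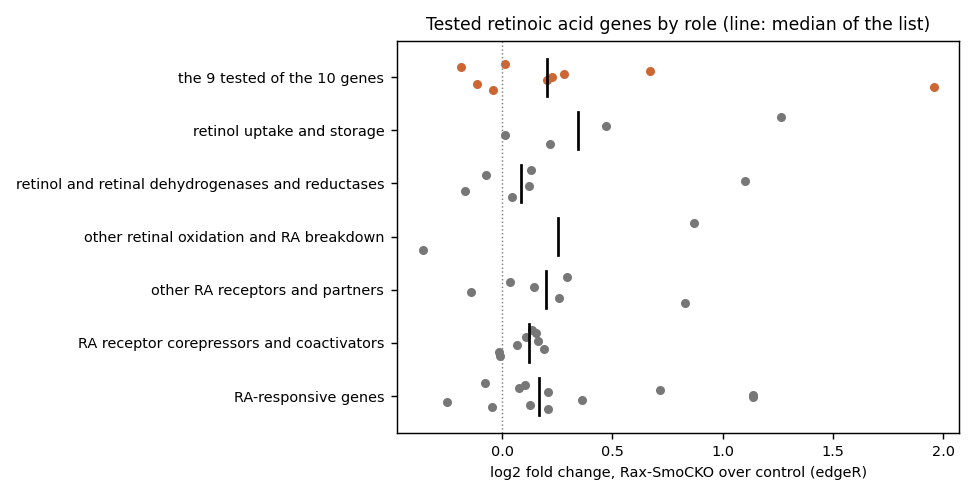
Log2 fold change, Rax-SmoCKO over control, in edgeR of the tested retinoic acid genes, 1 point per gene and 1 row per list, with a line at the median of the list. The 9 tested of the 10 genes are in orange, with a median of 0.20, and the medians of the other lists run from 0.08 to 0.35.

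Since Aldh1a1 and Aldh1a3 mark the dorsal and ventral retina, genes of these domains were read beside them. All 6 dorsal genes were tested, 5 above 0 and 1 below, with 0 called and a median of 0.10. Tbx3 stood at 0.14 (SE 0.08), Efnb1 at 0.18 (SE 0.11) and Efnb2, the most abundant, at 0.05 (SE 0.08) on the log2 scale. Of 6 ventral and optic stalk genes 5 were tested, 2 above 0 and 3 below, with 0 called and a median of −0.01. Bmpr1b, a receptor of bone morphogenetic proteins, stood at 68.7, 57.5, 69.8 and 54.1 CPM in the controls and 52.1, 59.6, 47.1 and 43.4 CPM in the Rax-SmoCKO retinas (log2 fold change −0.29, SE 0.11, adjusted p = 0.4425 in edgeR). Its change was −0.39 without Rax-SmoCKO replicate 2 and −0.38 without replicates 2 and 3. Ephb3 had 0.30 (SE 0.14, adjusted p = 0.5197 in edgeR), which was 0.16 without Rax-SmoCKO replicate 2 and 0.09 without replicates 2 and 3, and Ephb2, the most abundant, had −0.01 (SE 0.06).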

How the data were processed

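Libraries were made from RNA of isolated retinas with a kit that reads the 3′ ends of transcripts (QuantSeq FWD) and adds molecular identifiers. Per the study's methods, the authors trimmed and aligned the reads and took gene counts from featureCounts with an Ensembl annotation. Whole-number counts were deposited. STAR 2.7.0e and limma are listed among the tools, and GRCm38, mm10 and GRCh38 among the builds, in the submitters' processing notes. Collapsing of molecular identifiers and the strand setting are not given in the sources used here. A further pair of deposited columns, the authors' mean signal per group, was not used. The study's methods state 5 Rax-SmoCKO samples, while the series holds 4, and all 4 were analysed here. Totals were 3017480 to 4615667 counts per library. The 525 rows with no symbol held 0.094% of the counts. No pair of libraries of a group agreed within sampling noise (chi-square over its degrees of freedom 2.3 to 10.9).

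Counts were scaled by TMM and fitted on group by the quasi-likelihood method of edgeR 4.0.16 (R 4.3.3). Genes needed 5 counts in 4 libraries to be tested, and were called at a Benjamini-Hochberg adjusted p under 0.05. CPM are per 1000000 counts of the TMM-scaled library size. Alternatives were DESeq2 1.42.0 and its size factors, limma-voom 3.58.1, library size alone, a minimum of 10 counts, no minimum, the replicate block and left-out libraries. The scripts were tested on simulated data. Shares were compared by exact permutation. The intervals of the fold changes rest on the SE of the edgeR fit and so include the spread between libraries. Floors cover counting error only. The members and lists were chosen with earlier results of these data known. All 10 members are described, and of each other list the 2 genes with the smallest p, the 1 with the highest mean, any gene called and any gene whose groups do not overlap. Foxc1 was named after its values were seen. Some results that this rule would give are not reported here. Positions are from GENCODE M21 on GRCm38.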

Additional observations from a re-analysis of the deposited data

Results flagged for a closer look

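In 92 groups of 4 libraries the highest or lowest value was set against the other 3, and 5 stood apart, where chance gives about 1 in 20. None was among the 10 retinoic acid genes. Lens markers summed to 20483.8 CPM in control replicate 2 (9.94 to 16.17 CPM in the other controls) and to 490.9 CPM in Rax-SmoCKO replicate 2 (11.34 to 80.8 CPM in the other Rax-SmoCKO libraries). Surface ectoderm markers summed to 67.22 CPM in control replicate 2 (13.54 to 14.78 CPM in the other controls). Erythroid markers summed to 3797.3 CPM in Rax-SmoCKO replicate 2, beside 913.4 to 1188.4 CPM. Retinal ganglion cell markers summed to 3790.3 CPM in control replicate 4, beside 3218.5 to 3279.3 CPM in the other controls.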

How the results depend on the processing

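No member was called in any setting except Aldh1a2, with 1 member called when no minimum count was set (log2 fold change 1.95, adjusted p = 0.04639); that fit also called 3 of the wider list. With a minimum of 10 counts Aldh1a2 was not tested. Over all genes, 5 were called higher and 9 lower. DESeq2's Wald test called 26 and 33, no minimum 154 and 135, the replicate block 18 and 18, and the fit without Rax-SmoCKO replicates 2 and 3 called 10 higher. Leaving out 1 library at a time gave 5 to 8 higher and 7 to 14 lower. The sign turned for Aldh1a1 (0.0417 without control replicate 2, 0.0334 without Rax-SmoCKO replicate 4, 0.0204 without control and Rax-SmoCKO replicate 2), for Rdh10 (−0.0192 without Rax-SmoCKO replicates 2 and 3) and for Crabp2 (−0.0131 without control replicate 2, −0.0102 and −0.0008 without Rax-SmoCKO replicate 1 or 3), and the cause was not tested. Over single libraries left out, Aldh1a1 ranged from −0.1184 to 0.0417 and Crabp2 from −0.0131 to 0.0417. Over single libraries left out, the Aldh1a3 share differed by −2.553 to −0.03915 percentage points and the Crabp1 share by −3.788 to −2.047. Whether the replicate numbers pair the samples cannot be told from these data. Deviations of same-numbered libraries correlated at 0.0914, 0.236, −0.0557 and 0.0398, and those of differently numbered libraries at −0.223 to 0.145. With the numbers as a block 0 members were called, and the share differences of −0.9249 and −2.901 had an exact sign-flip p of 0.875 and 0.125. Scaling moved the median of all genes by less than 0.1. Among other named genes, Cyp26b1 turned to −0.26 without Rax-SmoCKO replicates 2 and 3, as did Ncor1 (to 0.04) and Ephb2 (to 0.04), both near 0 in the first place. Depth limits Cyp26c1, which had no count, and Aldh1a2, with at most 40 counts in a library.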
